A study of Mus musculus with 2 samples.

Results

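The 10 genes described here encode ligands and receptors that set how strongly a T cell responds to an antigen. They are the rows of the deposited expression table named Cd274, Pdcd1lg2, Cd80, Cd86, Icosl, Pdcd1, Ctla4, Icos, Havcr2 and Lag3, chosen by gene symbol, and all 10 were found among the 17943 genes of the table. RNA was sequenced from whole lung of wild-type C57BL/6 mice, 6 to 8 weeks old, kept under specific-pathogen-free conditions. Both groups received an adenovirus through the nose for 3 days, and they differed in its cargo: Adv-EV is the vector without a gene to deliver, and Adv-IL-17B delivers interleukin 17B, a cytokine, with n = 1 library for each. Both groups therefore carried adenovirus, and the labels name no group without it. The labels give 1 sample per group although the design text mentions triplicates, and the sources used here do not give how many mice a library holds. No difference below has a replicate check, so no test was run.

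Depth was estimated from the values at 5680000 reads for Adv-EV and 5650000 for Adv-IL-17B. Il17b was listed at 0 under Adv-EV, which allows up to 0.809 FPKM, and stood at 93.17 FPKM under Adv-IL-17B. Sftpc, a marker of the alveolar type 2 cells of lung, stood at 20843.53 and 11922.44 FPKM. Where a pair of values is given without names, the Adv-EV library comes first.

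A T cell needs a signal from its antigen receptor and a second, costimulatory signal. The ligands CD80 and CD86 on antigen-presenting cells give that second signal through CD28, and the same ligands bind the inhibitory receptor CTLA-4 more tightly. ICOS is a further activating receptor, bound by ICOS ligand. PD-1 is an inhibitory receptor of activated T cells whose ligands are PD-L1, found on many cell types and raised by interferon-gamma, and PD-L2, found mostly on dendritic cells and macrophages. TIM-3 and LAG-3 are inhibitory receptors of activated lymphocytes. TIM-3 is also made by macrophages and dendritic cells, and LAG-3 binds MHC class II.

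Values are FPKM, fragments scaled to transcript length and library total, which can be compared between genes. Cd274, the gene of PD-L1, was the most abundant of the 10 genes in both libraries and showed the most precisely measured difference. The genes of PD-1 and of both its ligands, together with Cd80, were at least 2-fold higher in the Adv-IL-17B library. Cd86, Havcr2 and Icosl were higher by less than 2-fold, by more than counting error. The intervals of Ctla4, Icos and Lag3 included equal levels. In bulk tissue, more cells of a type and more RNA per cell cannot be told apart. Intervals are exact Clopper-Pearson 95% intervals on estimated reads; they describe counting error and leave out the spread between animals and between preparations.

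Among the ligands, Cd274 stood at 15.43 FPKM under Adv-EV and 35.51 under Adv-IL-17B, about 314 and 721 reads. The ratio of the deposited values was 2.3-fold, with an interval from 2.02 to 2.64. Its level moved from percentile 70.7 of the table's genes in Adv-EV to percentile 86.4 in Adv-IL-17B. Exons of the transcript counted for Cd274, on the plus strand of chromosome 19, share 511 of their 3622 bases with the annotated gene AC119228.1 on the opposite strand. Without a stated use of strand, reads of these 2 genes cannot be told apart in the shared stretch. Exons of the other 9 genes overlap no exon of another annotated gene.

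Pdcd1lg2, the gene of PD-L2, was the least abundant of the 10, at 0.47 FPKM under Adv-EV and 1.41 under Adv-IL-17B. Its level percentiles were 16.1 and 25.8. These values rest on about 4 and 13 reads, and the 3.0-fold ratio has an interval from 1.01 to 13.8, the widest of the 10. PD-L1 transcripts outnumbered those of PD-L2 per length by 32.8 to 1 in Adv-EV and by 25.2 to 1 in Adv-IL-17B.

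Cd80 stood at 1.27 FPKM under Adv-EV and 3.17 under Adv-IL-17B, about 12 and 30 reads (2.5-fold, interval 1.25 to 5.39). Cd86, which encodes the other ligand shared by CD28 and CTLA-4, stood at 4.73 and 8.23 FPKM, about 67 and 117 reads (1.74-fold, interval 1.29 to 2.41). Cd86 was the more abundant of this pair in both libraries, with a Cd86 to Cd80 ratio of 3.72 under Adv-EV and 2.6 under Adv-IL-17B. Their summed level was 6.0 FPKM under Adv-EV and 11.4 under Adv-IL-17B.

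Icosl, the gene of ICOS ligand, was the second most abundant member and had the smallest ratio among the ligands. It stood at 9.83 FPKM under Adv-EV and 13.18 under Adv-IL-17B, about 155 and 207 reads (1.34-fold, interval 1.08 to 1.66). Its level percentile moved little, from 59.6 to 66.6 of the table's genes. Summed over the 5 ligands, the level was 31.7 FPKM under Adv-EV and 61.5 under Adv-IL-17B, of which Cd274 made up 48.6% and 57.7%.

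Among the receptors, Pdcd1, the gene of PD-1, stood at 1.19 FPKM under Adv-EV and 3.0 under Adv-IL-17B. These are about 13 and 32 reads, with a 2.52-fold ratio and an interval from 1.26 to 5.14. The exact Poisson intervals of the levels, 0.645 to 2.07 FPKM and 2.04 to 4.21 FPKM, overlap slightly. Ctla4 stood at 1.12 FPKM under Adv-EV and 1.58 under Adv-IL-17B (1.41-fold). With the longer of its 2 listed transcripts, of 1933 bp, these are about 12 and 17 reads and the interval runs from 0.641 to 3.27. With the shorter, of 614 bp, they are about 4 and 5 reads and the interval runs from 0.27 to 6.33, so a difference in Ctla4 was not detectable at this depth.

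Icos stood at 2.46 FPKM under Adv-EV and 3.1 under Adv-IL-17B, about 45 and 56 reads (1.26-fold, interval 0.83 to 1.89). Havcr2, the gene of TIM-3, was the most abundant of the 5 receptor genes, at 6.76 FPKM under Adv-EV and 11.36 under Adv-IL-17B. These are about 103 and 173 reads, with a 1.68-fold ratio and an interval from 1.32 to 2.18. Lag3 was the only member with a lower value in the Adv-IL-17B library, at 4.38 FPKM under Adv-EV and 3.49 under Adv-IL-17B. On about 49 and 39 reads, the level was 1.26-fold lower, with an interval from 1.96-fold lower to 1.24-fold higher, so neither direction was resolved. Summed over the 5 receptor genes, the level was 15.9 FPKM under Adv-EV and 22.5 under Adv-IL-17B. Havcr2 alone made up 6.76 and 11.36 FPKM of these sums, and macrophages and dendritic cells also make TIM-3, so the sums do not measure T cells alone.

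**Figure D1:**
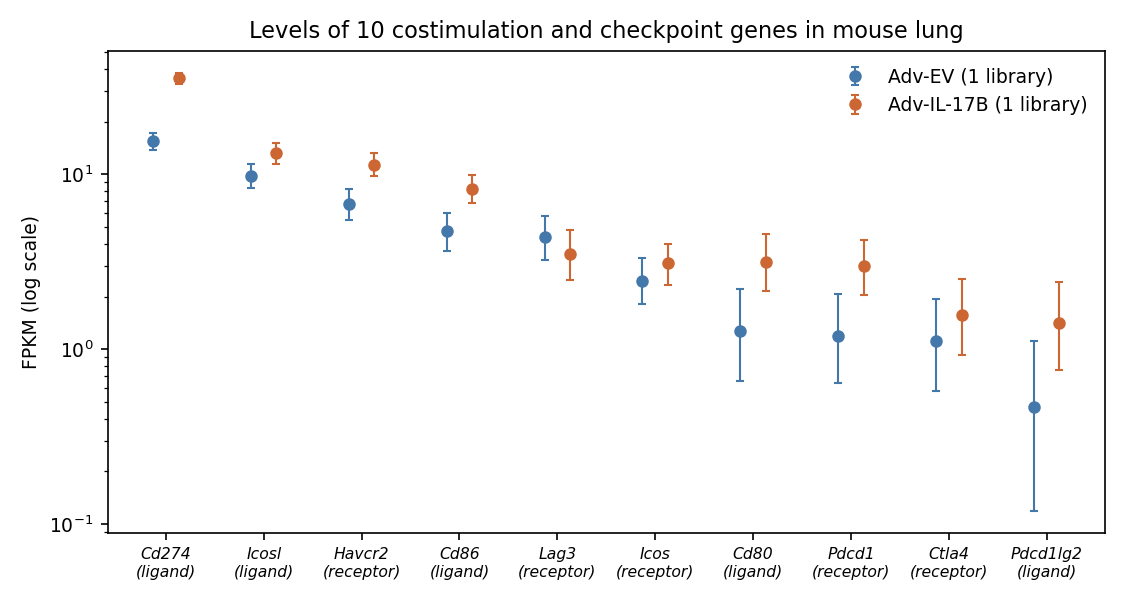
Level of each of the 10 genes in FPKM (log scale) in the Adv-EV library (blue) and the Adv-IL-17B library (orange), 1 library each, with exact Poisson 95% intervals for counting error. Points of Cd274 stand highest in both libraries, at 15.43 and 35.51 FPKM, and Lag3 is the only gene whose orange point lies below its blue point.

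**Figure D2:**
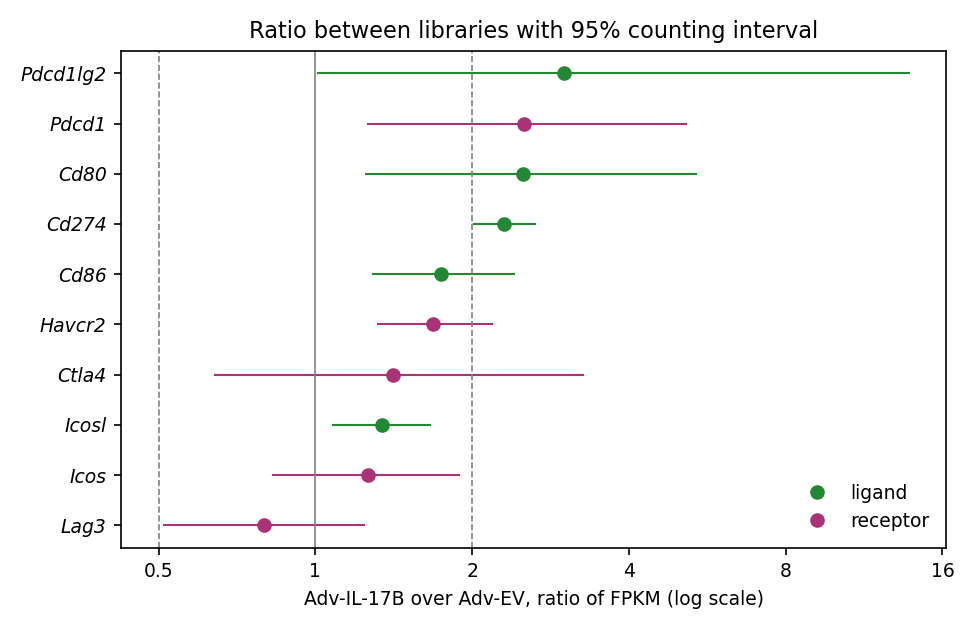
Ratio of FPKM in Adv-IL-17B to FPKM in Adv-EV for each gene (log scale), ligands in green and receptors in purple, with the exact 95% counting interval as a line, equal levels as a solid grey line and the 2-fold limits as dashed lines. On the deposited scale the interval of Cd274, from 2.02 to 2.64, lies just above 2-fold, while those of Ctla4, Icos and Lag3 cross equal levels.

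Within each library the genes could be ordered by level, with neighbours compared through the same kind of counting interval. In Adv-EV the order was Cd274, Icosl, Havcr2, Cd86, Lag3, Icos, Cd80, Pdcd1, Ctla4 and Pdcd1lg2. Cd86 and Lag3 were not separated there (ratio 1.08, interval 0.731 to 1.58), nor were any neighbours among Cd80, Pdcd1, Ctla4 and Pdcd1lg2. In Adv-IL-17B, Cd80 stood above Icos, and the other genes kept their order. There Icosl and Havcr2 were not separated (ratio 1.16, interval 0.941 to 1.42), and neither were neighbours among Lag3, Cd80, Icos and Pdcd1, or Ctla4 and Pdcd1lg2. The step from Cd86 to Lag3 was 2.36-fold in Adv-IL-17B, with an interval from 1.63 to 3.48.

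For counts, a difference of log2(FPKM + 0.1) of at least 1 in either direction, which is 2-fold, served as a rule of size for genes whose mean was 0.5 FPKM or more. All 10 members passed that minimum. By the rule 4 of 10 members had a higher level with the IL-17B vector (Cd274, Pdcd1lg2, Cd80 and Pdcd1), against 3.95% of the 15056 measured genes. None of the 10 was lower, against 2.68% of measured genes. The median log2 ratio was 0.76 over the 10 members, 1.20 over the 5 ligands and 0.46 over the 5 receptors, beside -0.01 over all measured genes. The ratios of Pdcd1lg2, Cd80, Pdcd1 and Cd274 lay between percentiles 97.2 and 98.0 of all measured genes, those of Cd86 and Havcr2 at 94.0 and 93.3, and that of Lag3 at 19.1. A ratio above 0 was seen in 9 of 10 members and in 48.6% of measured genes. At a limit of 1.5-fold, 6 of 10 members were higher, with Cd86 and Havcr2 added, against 9.42% of measured genes, and 0 were lower, against 8.2%.

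The count depends on low values. With a pseudocount of 1 in place of 0.1, only Cd274 was past 2-fold (log2 ratio 1.15), against 2.33% of measured genes, and 0 members were lower, against 1.17%. Cd80, Pdcd1 and Pdcd1lg2 then stood at log2 ratios of 0.88, 0.87 and 0.71. The median over the ligands became 0.71 and that over the receptors 0.28, so the ligand median was past 2-fold only with the smaller pseudocount.

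**Figure D3:**
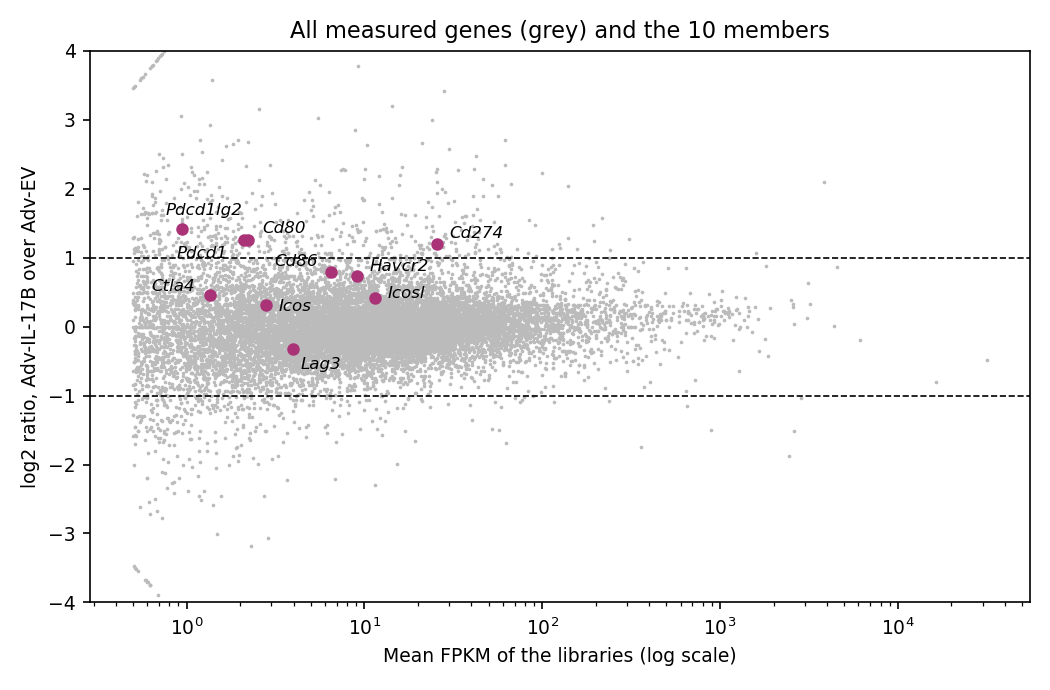
Log2 ratio of Adv-IL-17B over Adv-EV against mean FPKM (log scale) for the 15056 measured genes (grey) and the 10 members (purple, named), with dashed lines at the 2-fold limits. Pdcd1lg2, Cd80 and Pdcd1 lie above the upper line among genes of low level, where grey points spread widely, and Cd274 lies above it at 25.47 FPKM; 134 genes lie outside the axis from -4 to 4.

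The promoters of the 4 genes past 2-fold are shown because these genes were higher together. Promoter sequences were found for 7 of the 10 members in RefSeq (build GRCm38.p6): Cd274, Pdcd1lg2, Cd80, Pdcd1, Ctla4, Icosl and Havcr2. The other members are Cd86, Icos and Lag3. The 250 bases before the start given there for each gene were searched on both strands for the interferon-stimulated response element core GAAANNGAA, the gamma-activated site TTCNNNGAA, the AP-1 site TGANTCA and the kappaB consensus of NF-kappaB. Capitals mark the matches, and no match overlapped another. The windows are chr19:29367188-29367437 (plus strand) for Cd274, chr19:29410669-29410918 (plus strand) for Pdcd1lg2, chr16:38458683-38458932 (plus strand) for Cd80 and chr1:94052554-94052803 (minus strand) for Pdcd1.
Cd274: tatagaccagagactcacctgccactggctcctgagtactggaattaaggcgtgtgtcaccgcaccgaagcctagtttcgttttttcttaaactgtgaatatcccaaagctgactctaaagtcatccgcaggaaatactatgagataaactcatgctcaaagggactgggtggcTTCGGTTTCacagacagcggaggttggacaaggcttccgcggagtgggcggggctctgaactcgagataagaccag
Pdcd1lg2: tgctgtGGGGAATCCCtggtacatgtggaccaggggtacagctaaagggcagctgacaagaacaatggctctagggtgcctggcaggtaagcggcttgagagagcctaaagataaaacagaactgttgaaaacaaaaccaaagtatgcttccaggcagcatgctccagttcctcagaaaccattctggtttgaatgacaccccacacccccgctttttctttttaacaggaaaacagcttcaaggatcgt
Cd80: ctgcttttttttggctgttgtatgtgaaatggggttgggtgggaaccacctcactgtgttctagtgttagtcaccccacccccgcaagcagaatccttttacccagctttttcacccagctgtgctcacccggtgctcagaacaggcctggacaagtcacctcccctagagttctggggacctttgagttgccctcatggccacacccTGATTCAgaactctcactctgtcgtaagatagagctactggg
Pdcd1: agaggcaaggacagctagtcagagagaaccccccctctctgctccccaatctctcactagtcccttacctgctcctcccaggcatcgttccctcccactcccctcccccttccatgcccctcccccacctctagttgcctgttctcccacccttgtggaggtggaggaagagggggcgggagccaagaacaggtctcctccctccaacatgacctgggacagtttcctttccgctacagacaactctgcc

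The Cd274 window held 1 response element core, on the opposite strand, from 76 to 68 bases before the start. The Pdcd1lg2 window held 1 kappaB consensus, from 244 to 235 bases before the start, and the Cd80 window 1 AP-1 site, from 42 to 36 bases before it. These letters were not found in the Pdcd1 window. Of the members inside the 2-fold limits, Ctla4 held a response element core, Havcr2 an AP-1 site and Icosl none of the motifs. Over all 32851 promoter windows of the table, 7.13% held the response element core, 7.02% the gamma-activated site, 6.75% the AP-1 site and 3.9% the kappaB consensus. Any of the 4 motifs stood in 5 of the 7 member windows and in 22.4% of all windows. A match is a description of the letters and says nothing about binding.

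Several members lie in gene clusters. On chromosome 19 of GRCm38.p6, the assembly of mm10, Cd274 (29362107 to 29388095) and Pdcd1lg2 (29410919 to 29472927) are next to each other. These spans cover all RefSeq transcripts of a gene, so the promoter windows of Cd274 and Cd80, which precede the start of 1 transcript, lie inside them. By its span Cd274 also overlaps its neighbour Plgrkt. The nearest measured genes on either side of the pair, Plgrkt (22.1 and 22.92 FPKM) and Ric1 (5.26 and 5.19 FPKM), differed little, with log2 ratios of 0.05 and -0.02. Cd80 lies on chromosome 16 from 38457430 to 38495958, between Adprh (40.53 and 39.28 FPKM) and Timmdc1 (9.93 and 10.08 FPKM), whose log2 ratios were -0.05 and 0.02. Cd86 lies on the same chromosome from 36568956 to 36666158, between Ildr1 (5.92 and 6.97 FPKM) and Stfa2, which was listed at 0 under Adv-EV and stood at 1.27 FPKM, about 3 reads, in the other library. On chromosome 1, Cd28, Ctla4 (60909025 to 60915832) and Icos (60960773 to 61000322) stand in a row, and Pdcd1 lies farther along from 94038305 to 94052553. Lag3, on chromosome 6 from 124904359 to 124912434, lies between Cd4 (4.16 and 3.74 FPKM) and Ptms (456.44 and 403.45 FPKM). Icosl is on chromosome 10 from 78069368 to 78079525 and Havcr2 on chromosome 11 from 46454931 to 46481255. The neighbours of Havcr2 are Med7 (5.85 and 7.1 FPKM) and Timd4 (0.41 and 0.82 FPKM, about 5 and 10 reads).

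Other genes of the B7 and CD28 families and their partners were counted by the same rule. Of 10 listed genes, 8 were in the table and 7 were measured, and 0 of 7 were past 2-fold in either direction (median log2 ratio 0.32). A list of 7 genes is too short to set that count apart from the 3.95% and 2.68% of all measured genes, and its difference from the members was not tested. Cd160, a receptor gene for HVEM, was nearest to the rule at 0.57 and 1.14 FPKM on about 8 and 16 reads (2.0-fold, interval 0.812 to 5.42). Cd28, the activating receptor for CD80 and CD86, stood at 1.61 FPKM under Adv-EV and 1.07 under Adv-IL-17B, about 39 and 26 reads (interval of the ratio 0.392 to 1.13). The level of Ctla4 relative to Cd28 was 0.696 under Adv-EV and 1.48 under Adv-IL-17B, both on few reads. Vsir, the gene of the inhibitory ligand VISTA, stood at 33.19 and 43.69 FPKM (1.32-fold, interval 1.21 to 1.44), above Cd274 in both libraries. Cd276, the gene of B7-H3, stood at 4.86 and 7.69 FPKM (1.58-fold, interval 1.23 to 2.07), close to Cd86 in level.

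Of 25 other checkpoint receptor and ligand genes, 22 were measured (median log2 ratio 0.33). By the rule 2 were higher and 0 lower, against 3.95% and 2.68% of all measured genes. These were Cd200r1, an inhibitory receptor gene of myeloid cells, at 1.61 FPKM under Adv-EV and 4.17 under Adv-IL-17B (interval 1.46 to 4.86), and Cd96, a receptor gene of T and NK cells, at 1.06 and 2.52 FPKM (interval 1.22 to 4.99). Lgals9, which encodes the TIM-3 ligand galectin-9, stood at 116.49 and 152.79 FPKM (1.31-fold, interval 1.22 to 1.43), beside the 1.68-fold ratio of Havcr2. Fgl1, the gene of a LAG-3 ligand, stood at 1.96 and 3.57 FPKM on about 12 and 22 reads (interval 0.873 to 4.08), while Lag3 itself was at 4.38 and 3.49.

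Costimulators of the TNF family had 12 listed genes, of which 7 were measured (median log2 ratio 0.80). By the rule 1 was higher and 0 were lower, against 3.95% and 2.68% of all measured genes. The higher gene was Tnfrsf18, which encodes the receptor GITR, at 4.55 FPKM under Adv-EV and 9.93 under Adv-IL-17B (2.18-fold, interval 1.39 to 3.48). Tnfrsf9, the gene of the receptor 4-1BB, stood at 7.23 and 13.21 FPKM and its ligand gene Tnfsf9 at 4.14 and 8.26, with ratios of 1.83-fold and 2.0-fold. With a pseudocount of 1, 0 genes of these 3 lists were higher by the rule. The lists are too short to set their counts apart from the shares of all measured genes.

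PD-L1 is known as a target of interferon-gamma. A list of 14 genes drawn up for that route also held genes not particular to it, such as Stat3, Socs3, Cmtm4 and Cmtm6. Of these 14 genes, all were measured (median log2 ratio 0.17). By the rule 2 were higher and 0 lower, against 3.95% and 2.68% of all measured genes, and the list is too short to set them apart. The higher genes were the signalling inhibitors Socs1 (11.88 and 32.5 FPKM) and Socs3 (21.28 and 58.85 FPKM). Ifng itself stood at 0.75 FPKM under Adv-EV and 0.45 under Adv-IL-17B, about 5 reads and 3, so its direction was not resolved. The kinase gene Jak2, the factor gene Irf1 and the receptor gene Ifngr2 were between 1.35-fold and 1.44-fold higher, each with an interval above equal levels, beside 2.3-fold for Cd274. Cmtm6, whose protein keeps PD-L1 at the cell surface, stood at 46.66 and 46.0 FPKM (interval 0.9 to 1.09). The related gene Cmtm4 stood at 15.1 and 11.35 FPKM (interval 0.668 to 0.847).

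Signalling genes downstream of the T cell receptor and CD28 had 23 measured of 24 listed, of which 3 were higher (Vav1, Lcp2 and Ubash3a) and 0 lower (median log2 ratio 0.30). Over all measured genes, 3.95% were higher and 2.68% lower. Differences from those shares were not tested for this list or the exhaustion list below. Ptpn6 and Ptpn11, the phosphatase genes linked to PD-1, stood at 40.61 and 72.86 FPKM and at 29.32 and 26.82. Vav1, Lcp2 and Ptpn6 are also expressed by myeloid cells. Of 11 genes listed for T cell exhaustion, 2 were higher (Batf and the chemokine gene Cxcl13) and 0 lower (median log2 ratio 0.29). With a pseudocount of 1, only Cxcl13 was higher. Whole lung was sequenced, so neither gene is shown to come from T cells, and the counts do not measure exhaustion.

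Markers of myeloid cells were set beside the members, with counts to be read beside the 3.95% higher and 2.68% lower among all measured genes. Of 14 monocyte and interstitial macrophage markers, 4 were higher and 0 lower, among them Ly6c2, Fcgr1 and Cd68, with a median log2 ratio of 0.72 and a summed level of 1081 FPKM under Adv-EV and 1857 under Adv-IL-17B. Of 12 neutrophil markers, 5 were higher and 0 lower, with a median of 0.92 and sums of 1658 and 3032 FPKM. Lcn2 alone made up 1281.01 and 2359.76 FPKM of these sums, so they mostly follow that gene. Of 10 alveolar macrophage markers, 0 were higher and 3 lower (Marco, Ear1 and Fabp1), with a median of -0.67 and sums of 487 and 321 FPKM. Of 15 dendritic cell markers, 0 were past the rule, with a median of -0.22 and sums of 143 and 159 FPKM. No marker of these 4 lists was at 0 in either library.

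Lymphocyte markers were set beside the members in the same way. In lists this short, a count of 0 cannot be set apart from the 3.95% higher and 2.68% lower among all measured genes. The same limit holds for the other marker lists. Of 15 T cell markers, 0 were past the rule in either direction, with a median log2 ratio of 0.28 and summed levels of 143 FPKM under Adv-EV and 154 under Adv-IL-17B. By the mean of both libraries, the most abundant were Thy1 (21.39 and 26.06 FPKM), Cd2 (22.32 and 16.69 FPKM) and the kinase gene Lck (13.16 and 16.23 FPKM). The sum of the CD3 genes Cd3e, Cd3d and Cd3g was 35.4 FPKM under Adv-EV and 34.9 under Adv-IL-17B. Per 100 FPKM of that sum, Pdcd1 stood at 3.36 and 8.6 FPKM, Ctla4 at 3.16 and 4.53, Icos at 6.95 and 8.89, while Lag3 had 0.806 times its Adv-EV value. These CD3 genes were chosen for this scale after their values were seen. Of 8 regulatory T cell markers, 7 were measured, of which 2 were higher (Il2ra, at 1.34 and 3.14 FPKM, and Tnfrsf18), with a median of 0.50 and sums of 15.8 and 24.4 FPKM. With a pseudocount of 1, 0 of these were higher. Foxp3, the factor that defines these cells, stood at 3.43 and 2.97 FPKM (interval 0.612 to 1.23), and Gpr83 was listed at 0 in Adv-EV. The 11 NK cell markers had a median of 0.30 (sums 76.4 and 101 FPKM) and the 11 B cell markers a median of 0.05 (sums 119 and 182 FPKM), with 0 past the rule and no marker at 0 in either list. Cd72 alone made up 43.71 and 86.26 FPKM of the B cell sums.

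Relative to the monocyte and interstitial macrophage markers, whose median ratio was subtracted, the log2 differences were 0.69 for Pdcd1lg2, 0.55 for Pdcd1, 0.54 for Cd80 and 0.48 for Cd274. On that scale Cd86 and Havcr2 were near equal, at 0.07 and 0.02. Ctla4, Icosl, Icos and Lag3 had negative values, at -0.26, -0.30, -0.40 and -1.04. Marker-relative values have no intervals here, so these directions are not shown to exceed counting error. Relative to the T cell markers, the receptors stood at 0.98 for Pdcd1, 0.46 for Havcr2, 0.18 for Ctla4, 0.04 for Icos and -0.60 for Lag3. The part that these cell types had in the members' differences was not tested. Of structural cells, the 8 type 2 alveolar epithelial markers had a median log2 ratio of -0.25 and the 9 endothelial markers one of -0.22, with 0 past the rule in either list. The 4 measured of 8 mast cell and basophil markers had a median of -0.38, and Fcer1a of that list was at 0 in Adv-EV.

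Csf1r, a receptor gene of monocytes and macrophages that was chosen as a scale after its values were seen, stood at 56.49 FPKM under Adv-EV and 88.37 under Adv-IL-17B. Per 100 FPKM of Csf1r, Cd274 stood at 27.3 and 40.2 FPKM, Cd80 at 2.25 and 3.59 and Pdcd1lg2 at 0.832 and 1.6. Each value was higher with the IL-17B vector, but no interval was made on this scale. Cd80 and Pdcd1lg2 rest on few reads, about 12 and 4 in Adv-EV. On the same scale Cd86 stood at 8.37 and 9.31 FPKM and Havcr2 at 12.0 and 12.9, nearly level. Icosl, at 17.4 and 14.9 FPKM, was lower on this scale although its own level was higher.

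**Figure D4:**
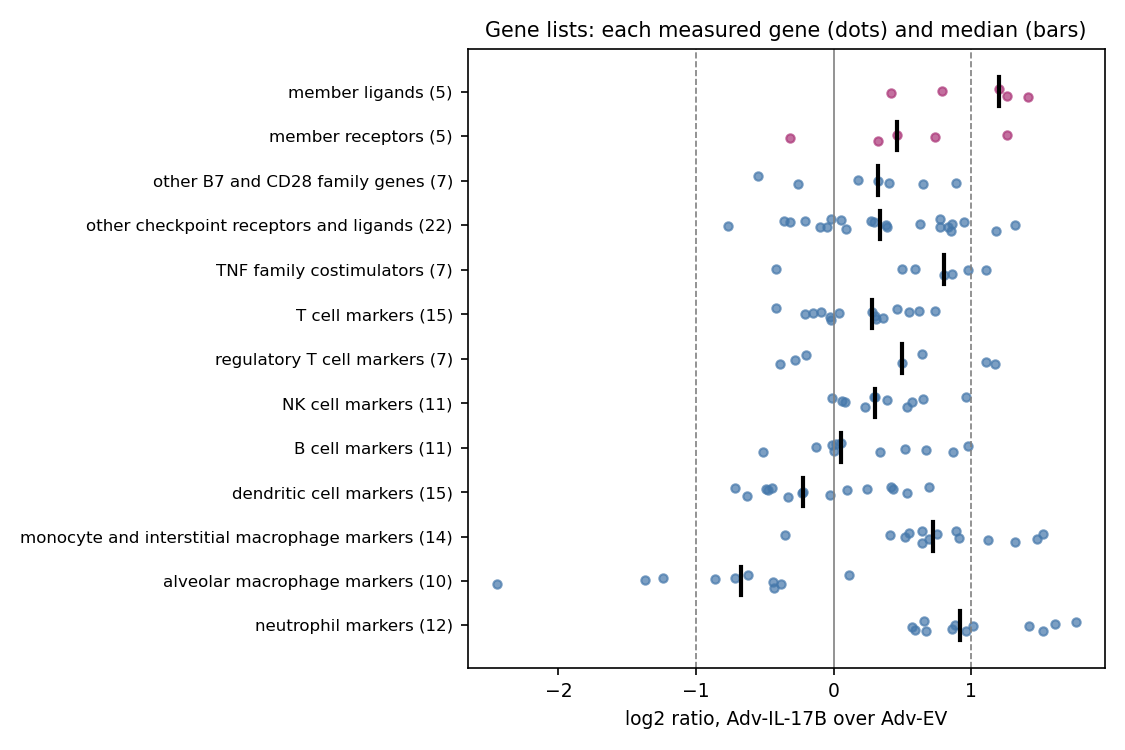
Log2 ratio of Adv-IL-17B over Adv-EV for each measured gene (dots) of the member groups (purple) and of other gene lists (blue), with the number of measured genes in brackets, the list median as a black bar and the 2-fold limits as dashed lines; the vertical scatter within a line has no meaning. With the pseudocount of 0.1, the medians are 1.20 for the member ligands, 0.46 for the member receptors, 0.28 for T cell markers and 0.72 for monocyte and interstitial macrophage markers.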

How the data were processed

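RNA sequencing libraries of whole mouse lung, 1 per group, were grouped by their titles. The authors deposited FPKM values with 2 decimals, as the file headers name them. Bowtie2, HISAT and the build mm10 are named, without roles or versions, in the submitters' processing notes. Of the counting tool, the annotation version, the filters and the use of strand, the choice made is not stated in the labels or headers.

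Depth was estimated from steps in the low FPKM values. Times transcript length (GENCODE M21, matched by RefSeq accession for 98.3% of genes), these are whole multiples of what 1 read is worth where whole reads were counted. Steps from 0.05 to 0.6 FPKM for 1 kb were searched, with up to 100 bases subtracted from each length. The largest step near the best score, with 40 and 30 bases subtracted, was 0.176 for Adv-EV and 0.177 for Adv-IL-17B. With it 79.4% and 79.0% of the low values used lay within 0.2 of a whole number. This makes about 5680000 and 5650000 reads, beside 5470000 to 6070000 and 5500000 to 6080000 when summed over genes with their shortest or longest transcripts. Read numbers are estimates, the longest transcript was used unless stated, and all intervals and floors cover counting error only. A floor is the level of 3 reads. No count test was run.

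Ratios are differences of log2(FPKM + 0.1), which understate the difference of low genes, and folds are plain ratios of deposited FPKM values. The steps were run on simulated data with counting error alone and with differences planted only in genes of higher read number. Calls on members with few reads, such as Pdcd1lg2, Cd80 and Pdcd1, were therefore not covered by it. All members were named. Of 5 lists (B7 and CD28 family, other checkpoints, TNF family, regulatory T cells, interferon-gamma route) any gene could be named, and of the others those past the size rule and the 3 most abundant. Some genes of these lists are not reported here. Gene neighbours were the nearest measured genes on each side. Members and the 17 other lists were chosen with earlier results of these data known, and some genes are in more than 1 list. Alternatives were other pseudocounts, filters, scalings and size limits. Python 3.11.15, numpy 2.4.6, pandas 2.3.3, scipy 1.17.1 and matplotlib 3.10.9 were used.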

Additional observations from a re-analysis of the deposited data

How the results depend on the processing

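No paired analysis was possible because each group has 1 library, and for the same reason no library could be left out. The members' median log2 ratio stayed between 0.68 and 0.77 with other pseudocounts and filters, with libraries rescaled to 1 common total and with ratios centred on the median gene. The median of the ligands was less stable. From 1.20 it became 0.71 with a pseudocount of 1 and 0.99 with a minimum mean of 2 FPKM. The median of the receptors, 0.46, became 0.28 and 0.53 with these settings. The count of members past 2-fold was 4, and it became 1 with a pseudocount of 1, 3 with a minimum mean of 2 FPKM and 6 at 1.5-fold. With the median ratio of the monocyte and interstitial macrophage markers subtracted, 0 members were past 2-fold higher (at most 0.69, for Pdcd1lg2) and Lag3 was past it lower, at -1.04. With that of the T cell markers subtracted, only Pdcd1lg2 was past it, at 1.12, and Pdcd1, Cd80 and Cd274 stood at 0.98, 0.97 and 0.91. On that scale Lag3 stood at -0.60. Marker-relative values have no intervals, and the interval of Lag3's own ratio included equal levels, so a lower level of Lag3 is not shown. The share of all measured genes past 2-fold on these scales was not computed. Over all measured genes, 594 were higher and 404 lower. These counts became 351 and 176 with a pseudocount of 1, 1146 and 1009 with no filter, 336 and 166 with a minimum mean of 2 FPKM, and 1418 and 1235 at 1.5-fold. Rescaling each library to 1 common total gave 593 and 440, centring on the median gene 601 and 398, and a pseudocount of 0.01 gave 626 and 456. Neither rescaling nor centring moved a member across the 2-fold limit. Depth limits Pdcd1lg2, Cd80, Pdcd1 and Ctla4 most, since each rests on 13 or fewer estimated reads in Adv-EV.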
